A study of Mus musculus with 4 samples.

Results

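The 10 genes examined here mark endothelial cells and lung capillaries, and their levels were compared in E18.5 (embryonic day) mouse lungs with reduced Fgf8. They are Pecam1, Cdh5, Emcn, Icam2, Cldn5, Cd34, Sox7, Sox17, Sox18 and Car4. The genes were chosen by name, with earlier results of these data known. Every probe that the array files assign to one of them was kept. This gave 16 probes on 25 spots among 41174 probes on 43379 spots that were not controls. Of these, 15 probes of 9 genes could be tested among 29991 probes of 20611 genes, and the single Cd34 probe could not. Hypomorph pools held lungs labelled fgf8 hypomorph and written Fgf8H/- in the extraction notes, and wild type pools held Fgf8+/+ lungs, both at E18.5 and on a strain background written c57nl7/sv129. The titles call the mutant AP/N, letters that the labels do not explain. Fgf8 encodes a secreted fibroblast growth factor. Each pool combined 3 lungs whose large airways and vessels had been removed, so a pool holds all remaining lung cell types and its value is an average over 3 lungs. The comparison rests on 4 pools of each genotype, 1 hypomorph pool in Cy5 and 1 wild type pool in Cy3 on each of 4 arrays. Mutant RNA carried Cy5 on all arrays, so dye and genotype cannot be told apart for any single probe.

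Endothelial cells line all blood vessels. Pecam1 and Cdh5 are adhesion molecules of their cell contacts, Cldn5 is a tight junction claudin, Icam2 is an adhesion molecule that binds leukocyte integrins, and Emcn and Cd34 are sialomucins of the luminal surface. Sox7, Sox17 and Sox18 are the SOXF transcription factors, which act in vessel formation and in arterial and lymphatic specification. Car4 encodes a membrane-anchored carbonic anhydrase on the luminal face of the alveolar capillary, where it interconverts carbon dioxide and bicarbonate. In the lung it marks the capillary endothelial cells called aerocytes, which lie against the thin alveolar epithelium, whereas general capillary cells lie beside them and can renew both types.

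The stretch just before the start of transcription is shown for the members that the RefSeq promoter table holds, 4 of 10, because 2 of them, Car4 and Cldn5, were lower in the hypomorph, while Emcn did not pass the test and Cd34 was not tested. Each sequence is the plus strand of GRCm38.p6 over 250 bases upstream of the start. Capitals mark the SOX letters ACAAT (reverse complement ATTGT) and the ETS letters AGGAAG (reverse complement CTTCCT), searched on both strands. They are 2 short motifs bound by factor families with roles in endothelium. Only these exact letters were searched, so shorter or other forms of either motif are not marked, and an unmarked window may hold them.
Car4, chr11:84957504-84957753: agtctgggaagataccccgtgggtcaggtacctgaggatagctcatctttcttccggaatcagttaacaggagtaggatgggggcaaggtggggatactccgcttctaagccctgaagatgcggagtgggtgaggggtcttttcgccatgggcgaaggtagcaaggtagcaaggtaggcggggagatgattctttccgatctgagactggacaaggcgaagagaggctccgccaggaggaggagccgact
Cldn5, chr16:18776597-18776846: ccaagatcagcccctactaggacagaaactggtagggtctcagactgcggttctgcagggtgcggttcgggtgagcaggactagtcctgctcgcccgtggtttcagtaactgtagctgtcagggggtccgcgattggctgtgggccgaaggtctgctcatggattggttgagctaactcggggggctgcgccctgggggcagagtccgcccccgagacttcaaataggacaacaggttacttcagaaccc
Emcn, chr3:137340828-137341077: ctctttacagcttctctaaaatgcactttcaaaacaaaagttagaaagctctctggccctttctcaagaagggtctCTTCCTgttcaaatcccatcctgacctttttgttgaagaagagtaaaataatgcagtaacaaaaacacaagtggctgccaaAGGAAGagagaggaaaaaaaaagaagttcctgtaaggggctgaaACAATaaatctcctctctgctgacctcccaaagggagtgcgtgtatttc
Cd34, chr1:194938571-194938820: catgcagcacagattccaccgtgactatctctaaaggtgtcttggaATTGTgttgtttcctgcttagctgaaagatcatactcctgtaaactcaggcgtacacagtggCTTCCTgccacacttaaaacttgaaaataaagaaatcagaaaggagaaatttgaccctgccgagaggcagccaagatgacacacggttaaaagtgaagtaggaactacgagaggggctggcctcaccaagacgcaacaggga
The Emcn window held 1 SOX and 2 ETS matches, the Cd34 window held 1 of each, and neither the Car4 nor the Cldn5 window held these letters. Among 27025 promoter windows of the same length, 28.3% held the SOX letters and 29.2% the ETS letters, so a match or its absence in a single window is common.

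Of the 15 tested probes, 8 were lower in the hypomorph, 1 was higher and 6 missed the threshold (limma's moderated test of the mean log2 ratio over 4 arrays against 0, Benjamini-Hochberg adjusted p under 0.05 over all probes). The 8 include several probes of Sox17, and the dimmer Pecam1 probe, whose call is not taken below as a result about Pecam1. The 6 include the dimmest Sox17 probe, which may not read the Sox17 transcript. Later counts of member probes include both, unless 1 probe per gene was taken. Over all probes tested, 12.7% were higher, 12.2% were lower and 24.9% were changed either way. With each gene taken by its brightest probe, Car4, Sox17, Icam2, Cldn5 and Cdh5 were lower, Sox18 was higher, and Pecam1, Emcn and Sox7 did not pass the test. Among all genes by their brightest probe, 13.6% were higher, 13.0% were lower and 26.6% were changed either way. Every count after loess for a gene or marker list below is to be read against these shares. The median log2 ratio of the 9 tested genes was -0.23, against -0.00 for all genes. These contrasts with all probes and genes are descriptive only, since the members were chosen with earlier results of these data known. Ratios are log2 of hypomorph over wild type after loess normalization within each array, given as mean ± SD over arrays, and levels are log2 intensities after loess and scaling between arrays. All 16 probes were well above background in 4 of 4 pools of each genotype, and none was saturated. The share of all probes whose pools do not overlap between genotypes was not counted, so non-overlap is given below as a description only. Without replicate 2, 4 of the members' probes were lower and 0 higher by limma's test, and calls over all probes fell to 1617, against 7468 with all 4 arrays. Without replicate 1 they numbered 7601. List counts without replicate 2 are to be read against that general fall.

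The direction of several of these ratios depends on the normalization, because the members' probes are among the brighter ones and loess removes a trend of the ratio with brightness. With each array centred on its median in place of loess, the median log2 ratio of all probes was 0.10, and it climbed with brightness, being -0.12 under a brightness of 8, 0.19 between 10 and 12, 0.38 between 14 and 15, 0.56 between 15 and 16 and 0.99 above 16. After loess these medians lay between -0.07 and 0.01, except 0.26 above 16. With median centring Car4 stayed lower, whereas the brightest probes of Icam2, Cldn5, Cdh5 and Sox17 lay above 0, at 0.22, 0.29, 0.32 and 0.04, the first 3 called higher. With that setting 6 of the 9 genes were higher by their brightest probe, namely Emcn, Icam2, Cldn5, Cdh5, Sox7 and Sox18, and Car4 alone was lower. Among all 29991 probes, 10997 were called higher and 3815 lower with that setting. Every count with median centring below is to be read against these. The values of Icam2, Cldn5 and Cdh5 lay below the 0.56 that was the median of probes of similar brightness. Brightness here is the mean log2 intensity of both channels.

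**Figure D1:**
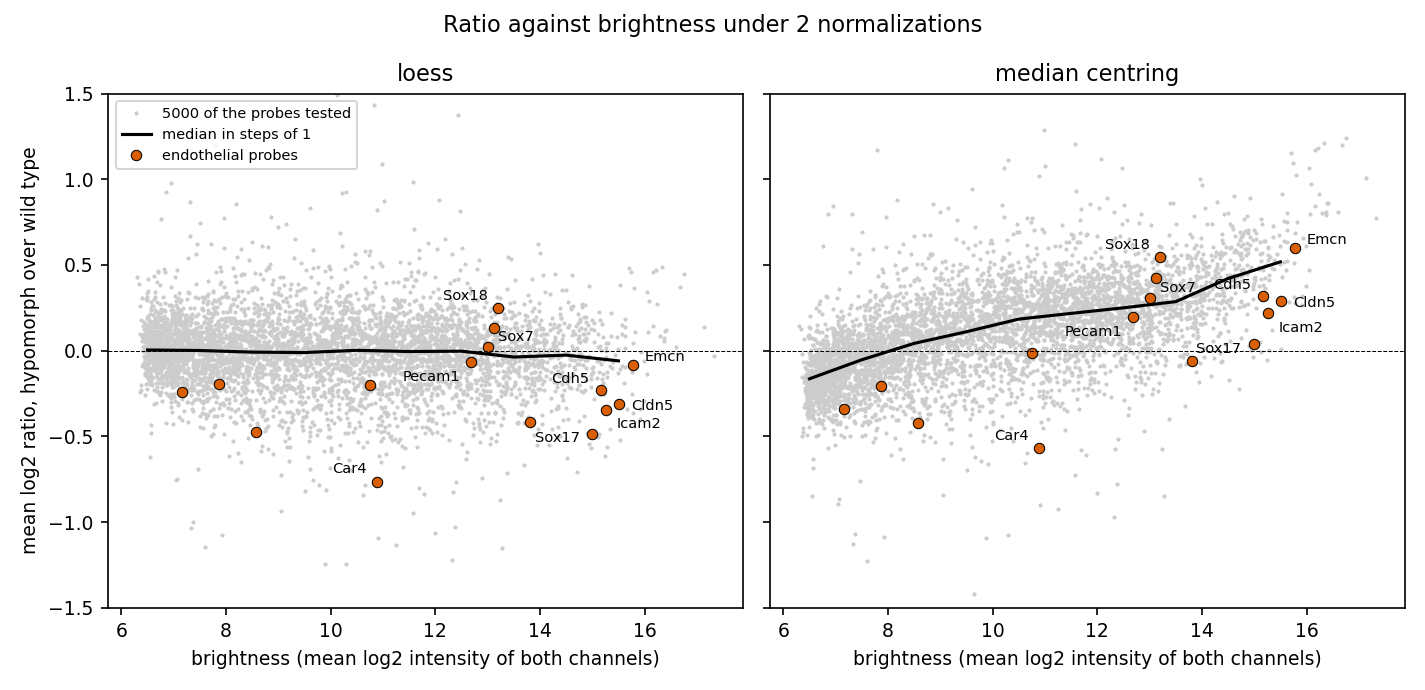
The plots set the mean log2 ratio, hypomorph over wild type, against brightness (log2 intensity) after loess (left) and after median centring (right). Orange points are the endothelial probes, with the brightest tested probe of each gene named, grey points are a random sample of the probes tested and the black line is the median in steps of 1; a few grey points lie outside the axes. Car4 lies below the line in both panels, and Icam2, Cldn5 and Cdh5 lie below the line but above 0 on the right.

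Car4 showed the lowest ratio of the 16 probes. Its level was 10.58, 10.50, 10.46 and 10.49 in the 4 hypomorph pools, against 11.41, 11.31, 11.01 and 11.36 in the wild type pools of the same arrays. Every hypomorph pool lay below every wild type pool, and the hypomorph pools lay close to each other. Car4 was thus 1.70-fold lower in the hypomorph (log2 ratio -0.76 ± 0.15, n = 4, 95% interval -0.92 to -0.61, limma adjusted p = 0.00185). Its probe lies at chr11:84781003-84781062 in build mm8, the build of the positions in the files. Car4 was lower and called under each of 18 other settings of the processing, with ratios between -0.84 and -0.57. These settings are not independent. The processed signals and the deposited series table hold the same values, and several other settings left the Car4 ratio unchanged. On every array where both were measured, the Car4 ratio lay below that of the brightest probe of each of the 8 other tested genes. The mean difference went from -0.28 ± 0.15 against Sox17 to -1.01 ± 0.17 against Sox18, and an exact two-sided sign-flip test over 4 arrays gave p = 0.125 for each pair measured on 4 arrays, the smallest value that 4 arrays allow. These 8 differences were among 10 examined, and no adjustment can bring such a p below the threshold. Car4 had the lowest mean ratio, which by itself favours differences below 0, so the sign-flip test adds no support for them.

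Car4 was compared with 14 other genes taken as aerocyte markers, a list drawn up with earlier results of these data known. Other lung cell types can also express such genes, which was not examined, and Kdr is in the pan-endothelial list below as well. The values in bulk lung are therefore not particular to aerocytes. Of the 13 list genes that were measured, 10 were lower, none was higher and 3 did not pass the test, and their median was -0.39. The 4 with the smallest p were Chst1, a carbohydrate sulfotransferase (-0.78 ± 0.11, limma adjusted p = 0.00136), Kitl, the ligand of the Kit receptor (-0.39 ± 0.06), Clec1a, a C-type lectin (-0.42 ± 0.09), and Tbx3, a T-box transcription factor (-0.45 ± 0.04, n = 3 arrays). The Chst1 ratios were -0.88, -0.87, -0.67 and -0.71 on the 4 arrays, and Chst1 stayed lower with median centring (-0.55). Ednrb, an endothelin receptor that marks aerocytes in the adult lung, gave 0.16 ± 0.17 and did not pass the test, and it was picked for mention after its value was seen. With median centring 4 of the 13 were higher, 1 was lower and their median was 0.10, against 0.10 for all probes. That median of all probes climbed with brightness, so it is not matched to the brightness of these genes. Without replicate 2 only 10 of these genes could be measured, of which 4 were lower. Without replicate 3 it was 5 of 10, and without replicate 1 or 4 it was 7 of 10.

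Of 12 general capillary genes, all measured, 3 were lower, 5 were higher and 4 missed the threshold, with a median of 0.00. The lower genes were Lpl, the lipase of capillary surfaces (-0.37 ± 0.08), Gpihbp1, the protein that carries this lipase across the endothelium (-0.45 ± 0.18), and the integrin gene Itga1 (-0.39 ± 0.10). Aplnr, the apelin receptor, was 1.36-fold higher (0.45 ± 0.10, n = 3, limma adjusted p = 0.00939). Its ligand gene Apln, which is in the aerocyte list, was lower (-0.47 ± 0.09, n = 3), and it was picked for mention after its value was seen. With median centring 7 of the 12 were higher and none was lower, so these lower calls rest on loess, whereas Aplnr was higher under both (0.75 with median centring). The genes called higher numbered 4 of 10 without replicate 1, 1 of 10 without replicate 2, 1 of 12 without replicate 3 and 0 of 10 without replicate 4 (limma).

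**Figure D2:**
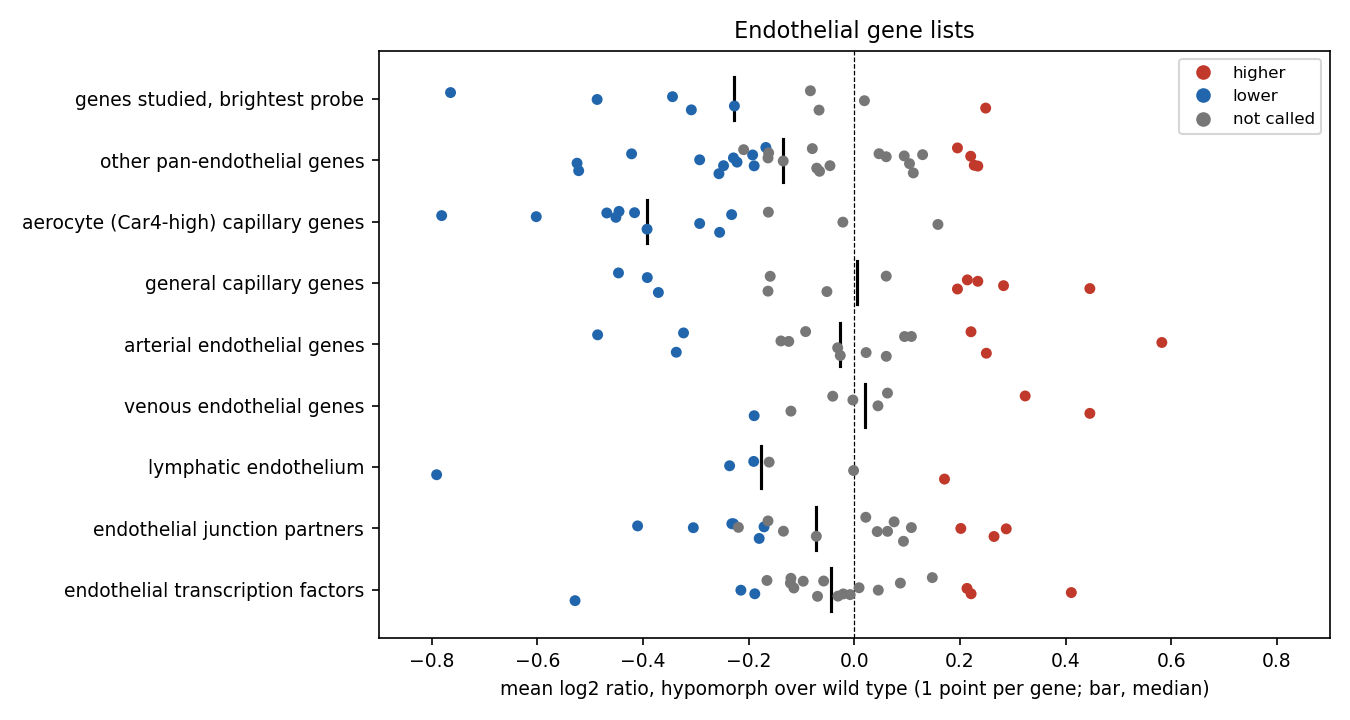
Each point is the mean log2 ratio, hypomorph over wild type, of a gene's brightest probe, and the bar in each line is the list's median. Blue points were lower, red points higher and grey points not called at an adjusted p under 0.05; the aerocyte list's median is -0.39 and that of the general capillary list 0.00.

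Among the SOXF factors, Sox17 was lower and Sox18 higher. The brightest Sox17 probe read 14.71, 14.79, 14.73 and 14.78 in the hypomorph pools, against 15.34, 15.35, 15.10 and 15.16 in the wild type pools. The genotypes did not overlap, and Sox17 was lower (-0.49 ± 0.13, n = 4, limma adjusted p = 0.00502). Sox17 had 3 further probes in the files, and all 4 had ratios below 0 on all 4 arrays, although the dimmest may not read the Sox17 transcript. The second, 387 bases from the brightest, read 13.49, 13.58, 13.60 and 13.73 in hypomorph pools and 14.03, 14.12, 13.93 and 14.01 in wild type pools, again without overlap (-0.42 ± 0.13, adjusted p = 0.00745 by limma, and 0.0509 without replicate 2). The third was dim, at a brightness of 7.86, and gave a smaller ratio (-0.20 ± 0.07, limma adjusted p = 0.0271, and 0.0654 to 0.106 without replicate 2, 3 or 4). The dimmest, at a brightness of 7.16, gave -0.61 on array 1 and between -0.20 and -0.03 on the others, and did not pass the test (-0.24 ± 0.25, limma adjusted p = 0.105). The start and end of this last probe run in the opposite order in the files to those of the other 3. It may therefore read the other strand, and it is not counted as a Sox17 result. The 4 probes lie at chr1:4481503-4481562, chr1:4481890-4481949, chr1:4485231-4485290 and chr1:4488752-4488811 in mm8. With median centring the brightest Sox17 probe gave 0.04 and the second gave -0.06, neither of them called, while the 2 dim probes were called lower there (-0.21 and -0.34, limma adjusted p = 0.0241 and 0.0104). With that setting the median of all probes was -0.12 under a brightness of 8, 0.26 between 12 and 14 and 0.38 between 14 and 15. The brightest Sox17 probe lay in the last of these ranges and the second probe in the middle one.

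Sox18 read 13.33, 13.05, 13.50 and 13.44 in the hypomorph pools, against 12.96, 12.87, 13.25 and 13.26 in the wild type pools. The genotypes overlapped in level, but on each array the hypomorph pool was the higher of the 2. Sox18 was 1.19-fold higher (0.25 ± 0.09, n = 4, limma adjusted p = 0.0182), and its call was lost without replicate 2 (adjusted p = 0.0712 by limma) or replicate 3 (0.0758). Its probe lies at chr2:181599490-181599549 in mm8. The ratio of Sox17 lay below that of Sox18 on each array, by 0.56 to 1.00, with a mean difference of -0.74 ± 0.19 (exact two-sided sign-flip p = 0.125, the smallest possible). Sox17 had been called lower and Sox18 higher, so a mean difference below 0 was already given and this test adds no support.

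Sox7, the third member of the family, did not pass the test with either probe after loess. The brighter one, at chr14:62904692-62904751, had ratios of 0.25, -0.19 and -0.01 on arrays 1 to 3 and no usable spot on array 4 (0.02 ± 0.22, n = 3, 95% interval -0.22 to 0.25, limma adjusted p = 0.894). The other, at chr14:62898469-62898528, had ratios of -0.86, 0.05, -0.05 and 0.06 (-0.20 ± 0.45, n = 4, limma adjusted p = 0.376). On array 1 the probes thus pointed in opposite directions, and the second probe's mean was 0.02 without that array. With median centring the brighter probe was called higher (0.31, limma adjusted p = 0.0442). The median of all probes between 12 and 14 in brightness, its range, was 0.26 with that setting. Of 13 other SOX genes measured, Sox4 (0.31 ± 0.10) and Sox13 (0.27 ± 0.09, n = 3) were higher, none was lower and 11 did not pass the test. Among all genes 13.6% were higher and 13.0% lower. With median centring 5 of the 13 SOX genes were higher and 1 lower, and without replicate 2 or 3 limma called 0 of 10.

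Among the junction and adhesion genes, Icam2 and Cldn5 were lower. Icam2 read 15.08, 15.17, 15.08 and 15.05 in the hypomorph pools, against 15.50, 15.49, 15.34 and 15.41 in the wild type pools, with no overlap. It was 1.27-fold lower (-0.34 ± 0.07, n = 4, limma adjusted p = 0.00616). Cldn5 read 15.33, 15.35, 15.45 and 15.26 in the hypomorph pools, against 15.64, 15.68, 15.63 and 15.67 in the wild type pools, also with no overlap. It was 1.24-fold lower (-0.31 ± 0.10, n = 4, limma adjusted p = 0.0108), a call that was lost without replicate 2 (adjusted p = 0.0665 by limma). The Icam2 probe lies at chr11:106193821-106193880 and the Cldn5 probe at chr16:18691516-18691575, both in mm8.

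The Cdh5 probes disagreed after loess. The brighter read 15.09, 14.84, 15.17 and 15.17 in the hypomorph pools, against 15.17, 15.25, 15.34 and 15.41 in the wild type pools, and the highest hypomorph pool reached almost the lowest wild type pool. It was called lower (-0.23 ± 0.14, n = 4, limma adjusted p = 0.0425), close to the threshold, and the call was lost without replicate 2, 3 or 4, with plain background subtraction, with an intensity trend in the variance and with unpaired channels. The dimmer, 660 bases away, had ratios of 0.19, 0.08, 0.25 and 0.00 and did not pass the test (0.13 ± 0.11, limma adjusted p = 0.124). It lay above the brighter probe's ratio on each array, by 0.36 ± 0.11 on average, so no single direction can be given for Cdh5. With median centring both probes were called higher (0.32 and 0.42, limma adjusted p = 0.0105 and 0.00104). The medians of all probes in their ranges of brightness were 0.56 and 0.26 with that setting. The probes lie at chr8:107033388-107033447 and chr8:107032728-107032787 in mm8.

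The Pecam1 probes differed too. The main probe was printed 10 times on each array, and its level was 12.69, 12.44, 12.74 and 12.71 in the hypomorph pools, against 12.66, 12.59, 12.71 and 12.88 in the wild type pools. The genotypes overlapped and the ratio did not pass the test (-0.07 ± 0.11, n = 4, 95% interval -0.20 to 0.07, limma adjusted p = 0.394). The SD of the ratio among the repeated spots of an array was between 0.019 and 0.039, below the SD of 0.11 between arrays, so repeat spots add little to the error. The second probe was dimmer, at a brightness of 8.57, and its ratios were -0.60, -0.56, -0.38 and -0.36 (-0.48 ± 0.12, limma adjusted p = 0.00470). The files name this probe Pecam1 and place it at chr11:106497834-106497893 in mm8. That lies between the ends given for the main probe, chr11:106497165-106499018, which are 1854 bases apart, so the 2 need not read the same sequence. The description of the second probe, however, names a disintegrin and metalloprotease domain 28 clone. The 3 probes named Adam28 lie on chromosome 14, gave ratios between 0.10 and 0.16 and did not pass the test. The lower call of the second probe is therefore not taken as a result about Pecam1.

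Among 19 genes of endothelial junctions other than the members, all measured, 6 were lower, 3 were higher and 10 missed the threshold, with a median of -0.07. The 4 with the smallest p were lower, namely Cgnl1, a cingulin-like junction protein (-0.41 ± 0.11, n = 3), Esam, an endothelial adhesion molecule (-0.23 ± 0.06), the tight junction gene Ocln (-0.23 ± 0.09) and Krit1, which binds junction proteins (-0.30 ± 0.16). With median centring 10 of the 19 were higher and none was lower, and without replicate 2 none of the 15 then measured was called by limma.

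The sialomucins Emcn and Cd34 gave no lower call. Emcn read 15.79, 15.75 and 15.66 in the hypomorph pools of arrays 1, 2 and 4, against 15.82, 15.84 and 15.79 in the wild type pools, with overlap. Its ratio did not pass the test (-0.08 ± 0.05, n = 3, 95% interval -0.22 to 0.05, limma adjusted p = 0.281). Emcn was called lower with a loess span of 0.1 (-0.21) and higher with median centring (0.60, limma adjusted p = 0.000486). The medians of all probes between 15 and 16 in brightness, its range, were -0.07 and 0.56 with these settings. The single Cd34 probe was among the brightest on the array, and the scanner software marked its spots on 3 of 4 arrays as outliers of the local background, so it was not tested. With marked spots kept, Cd34 read 16.68, 16.56, 16.74 and 16.55 in the hypomorph pools, against 16.40, 16.44, 16.33 and 16.29 in the wild type pools, with no overlap (0.27 ± 0.12, limma adjusted p = 0.0198). That ratio is close to the median of 0.26 of all tested probes above a brightness of 16, of which 50.6% were called higher and 7.83% lower. The probes lie at chr3:137368234-137368293 for Emcn and chr1:196661922-196661981 for Cd34 in mm8. Of 5 related mucin genes measured, Podxl2 was higher (0.40 ± 0.13) and the other 4 did not pass the test, while without replicate 2 none of the 5 was called by limma and with median centring 4 were higher.

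**Figure D3:**
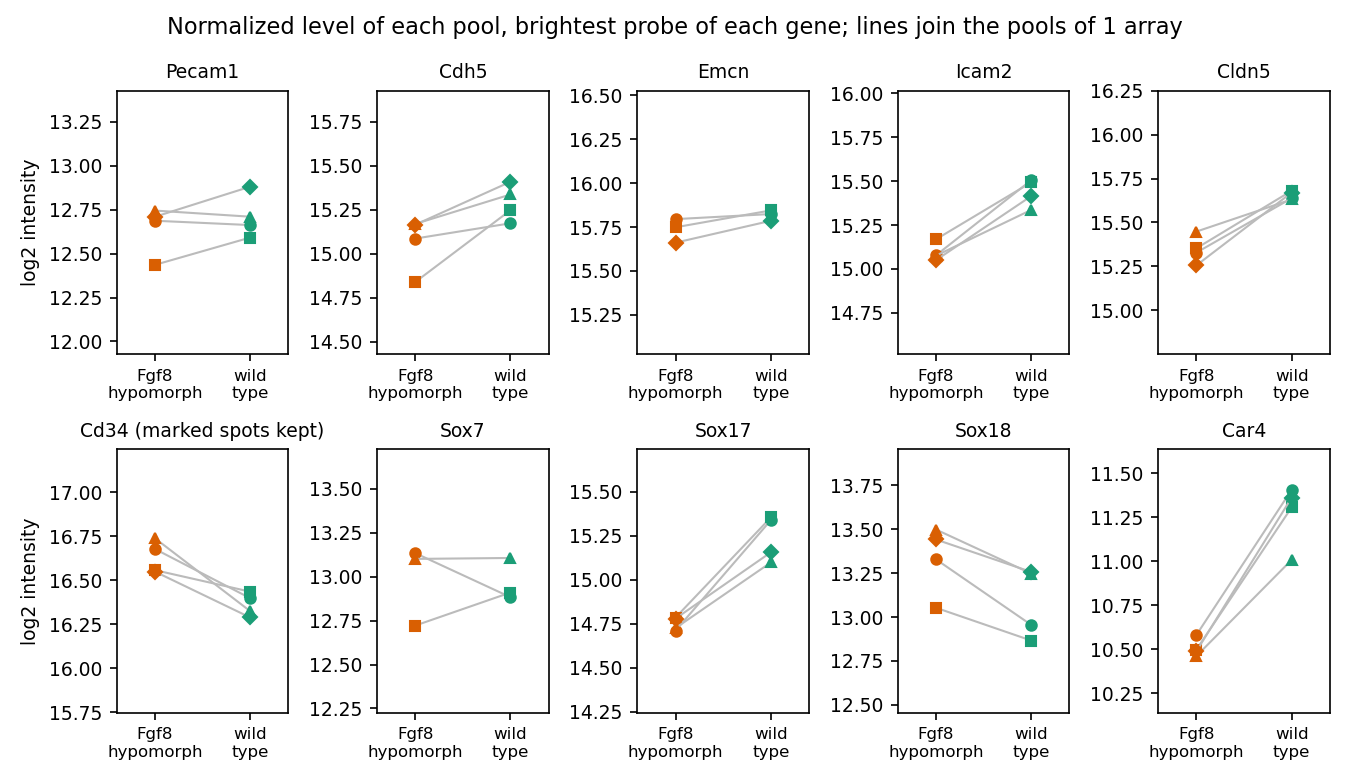
Each panel shows the normalized log2 intensity of the 4 hypomorph pools (left, orange) and the 4 wild type pools (right, green) for a gene's brightest probe, with a line joining the pools of 1 array; Emcn and Sox7 have 3 arrays. The genotypes do not overlap for Car4, Sox17, Icam2, Cldn5 and Cdh5, where the hypomorph pools are lower, nor for Cd34, where they are higher and marked spots were kept. The share of all probes without overlap was not counted.

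**Figure D4:**
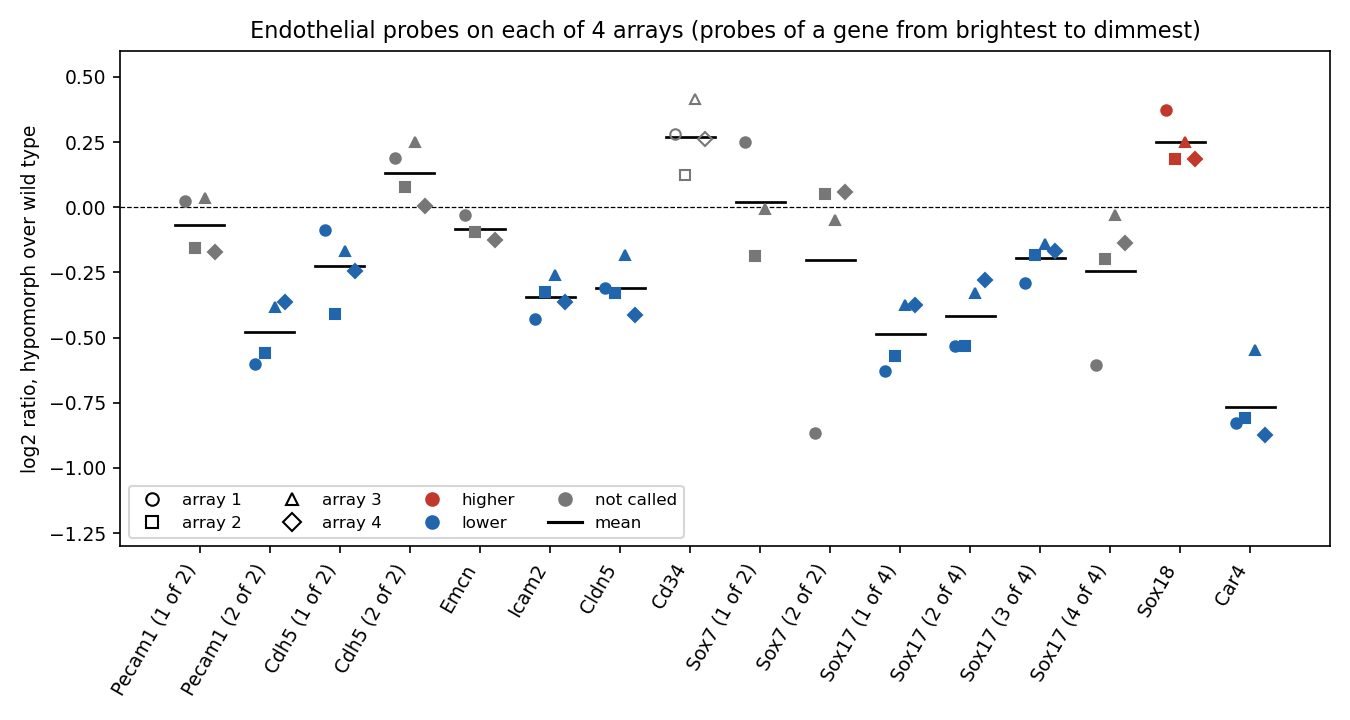
Points are the log2 ratios, hypomorph over wild type, of all 16 probes on each of 4 arrays, bars are their means, and colours show the call at an adjusted p under 0.05 (Cd34, with marked spots kept, was not tested). All 4 probes that the files name Sox17 lie below 0 on every array, although the dimmest may not read the Sox17 transcript. The Cdh5 probes lie on either side of 0, and 1 Sox7 probe has a low value on array 1.

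Across endothelial genes in general, the lower calls were not uniform. Of 30 other pan-endothelial genes, 29 were measured, of which 11 were lower, 4 were higher and 14 missed the threshold, with a median of -0.13. The 4 with the smallest p were lower, namely S1pr1, a receptor for sphingosine 1-phosphate (-0.52 ± 0.12), Calcrl, a receptor for adrenomedullin (-0.52 ± 0.13, n = 3), Kdr, a VEGF receptor (-0.29 ± 0.10), and Myct1, an endothelial membrane protein gene (-0.22 ± 0.02). S1pr1 stayed lower with median centring (-0.26), where 16 of the 29 were higher and 1 was lower. Tek, the angiopoietin receptor, was higher (0.23 ± 0.10) by its brightest probe, while another Tek probe gave -0.22, and it was picked for mention after its value was seen. Without replicate 1, 10 of 24 were lower and 3 higher. Without replicate 2, 1 of 25 was lower and none higher, without replicate 3 it was 2 of 24 and none, and without replicate 4, 4 of 22 were lower and 1 higher.

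Endothelial transcription factors other than the SOXF genes were balanced, with 3 higher, 3 lower and 14 not passing the test among 20 measured, and a median of -0.04. These counts are near the shares among all genes, 13.6% higher and 13.0% lower. Those with the smallest p were Heyl, a Notch target (0.41 ± 0.14), the ETS factor gene Fli1 (0.22 ± 0.05), Gata2 (-0.19 ± 0.06) and Lyl1 (-0.21 ± 0.10). With median centring 14 of the 20 were higher and none was lower, and without replicate 2 or 3, 1 of 19 was higher and none lower.

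Of 15 arterial genes, all measured, 3 were lower, 3 were higher and 9 missed the threshold. These counts, and the venous and carbonic anhydrase counts below, are to be read against 13.6% higher and 13.0% lower among all genes. The Notch ligand gene Dll4 (-0.32 ± 0.06), the netrin receptor gene Unc5b (-0.34 ± 0.08) and the Notch target Hey1 (-0.49 ± 0.11, n = 3) were lower, and Vegfc, a ligand of lymphatic growth, was higher (0.58 ± 0.09, n = 3, limma adjusted p = 0.00464). None of the 3 kept its lower call with median centring, and without replicate 2 only 1 of 12 arterial genes was called, lower. Of 8 venous genes measured, Aplnr and Vcam1 (0.32 ± 0.16) were higher, Vwf was lower (-0.19 ± 0.07) and 5 did not pass the test. Vwf lost its call without replicate 2, 3 or 4 and lay at 0.11 with median centring, where 4 venous genes were higher and none lower, and without replicate 4 limma called 0 of 7. Of 13 other carbonic anhydrase genes measured, Car2, a cytosolic form, was higher (0.30 ± 0.02, n = 3), Car8 was lower (-0.26 ± 0.13) and 11 did not pass the test. Car8 lost its call without replicate 2 or 3, with the processed signals and with median centring (-0.02), where Car2 gave 0.86.

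Markers of other vascular and lung cell types moved with the genotype as well, and their part in the members' ratios was not tested. In a bulk lung sample, fewer cells of a type and less RNA per cell cannot be told apart. Of 6 lymphatic markers measured, 3 were lower and 1 higher, led by Lyve1, a hyaluronan receptor (-0.79 ± 0.07), and their summed log2 level was 14.57 to 14.73 in hypomorph pools and 15.16 to 15.35 in wild type pools. Without replicate 2, 3 or 4, 1 of the 6 was lower and none higher, and with median centring 1 was lower and 2 were higher, Lyve1 then giving -0.32. Of 6 pericyte markers measured, 3 were lower and none higher, including the potassium channel subunit genes Kcnj8 (-0.87 ± 0.14) and Abcc9 (-0.77 ± 0.08), with summed levels of 14.97 to 15.53 in hypomorph pools and 15.41 to 15.80 in wild type pools. With median centring 2 of the 6 were lower and 2 higher. The pericyte marker Pdgfrb could not be tested. Of 8 platelet and megakaryocyte markers, which share adhesion genes with endothelium, 6 were lower and none higher, led by Gp9 (-0.81 ± 0.27), with overlapping sums of 13.71 to 14.15 in hypomorph pools and 13.95 to 14.38 in wild type pools, and lower markers numbered 1 of 8 without replicate 2 and 2 of 8 without replicate 3. Of 10 epithelial markers measured, 4 were higher and none lower, with sums of 17.37 to 18.09 in hypomorph pools and 17.25 to 18.03 in wild type pools. The epithelial markers called higher numbered 0 of 9 without replicate 2 or 3, 2 of 8 without replicate 4, 1 of 10 with the processed signals, where 1 was lower, and 10 of 10 with median centring. Of 5 mesothelial markers, 4 were lower and none higher, and 2 of 4 were lower without replicate 2. The mesothelial sums were 13.00 to 16.29 in hypomorph pools and 13.35 to 16.90 in wild type pools. A marker without a usable spot on an array is missing from that array's sums. Pericyte, epithelial and mesothelial sums can therefore cover different genes on different arrays, and their ranges are not comparable across arrays. The remaining marker lists had at most 2 genes called in either direction. Fgf8 itself gave -0.18 ± 0.11 with 1 probe (n = 4, limma adjusted p = 0.0572), which did not pass the test, and its other probe was not tested.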

How the data were processed

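Total RNA of 4 hypomorph pools (Cy5) and 4 wild type pools (Cy3), 3 lungs each, was hybridised to 4 Agilent two-colour arrays. The arrays lie on 1 slide and were read in 1 scan. Per the submitters' processing notes, the scanner software was Agilent Feature Extraction 9.5.1. Both deposited mean and background intensities are raw, and the processed intensities are background-subtracted and dye-normalized, per the file headers. A deposited column of log10 ratios, red over green of the processed intensities, was not used for the main values. The deposited series table holds log2 values that matched log2 of processed red over green with a correlation of 1.

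From the deposited intensities, limma 3.58.1 (R 4.3.3) was used for normexp correction with an offset of 50 and loess within arrays with a span of 0.3. Control spots and spots marked as outliers were left out, between 2136 and 2219 marked spots per array, and spots of a probe were averaged. A probe was tested when well above background in at least 1 channel, with values, on 3 of 4 arrays. Each array pairs 1 pool of each genotype, so the ratio itself carries the pairing. Levels per pool are those of each channel after loess and Aquantile scaling. The mean ratio was tested by limma's moderated test, adjusted by Benjamini-Hochberg over 29991 probes, and a call needs an adjusted p under 0.05. With 4 arrays, their number limits the precision. Names come from the files, and 24375 of 41174 probes took the symbol that RefSeq GRCm38.p6 gives their accession, whether or not it differed. The steps were tested on simulated data. Alternatives were other background corrections, median centring, a loess span of 0.1, the processed signals, the series table, other filters, marked spots kept, 1 probe per gene, another variance model, unpaired channels and leaving out each array. The 10 genes and the gene lists were chosen with earlier results of these data known. Named genes are the 10 with every probe and up to 4 of each list with the smallest p, with others noted as picked after their values were seen. Of 215 genes in the lists, 9 are in over 1 list. Hypomorph pools had 32731 to 34519 spots well above background and wild type pools 32491 to 33744.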

Additional observations from a re-analysis of the deposited data

Results flagged for a closer look

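Among the 13 probes with values on 4 of 4 arrays, 1 had an array far from the others. The dimmer Sox7 probe had log2 ratios of -0.86, 0.05, -0.05 and 0.06, and the gap between array 1 and the nearest other array was 0.887 of the whole range, above Dixon's critical value at 95%. Chance alone marks about 1 in 20 groups of this size. On array 1 the brighter Sox7 probe read 0.25. The cause was not tested.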

How the results depend on the processing

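Over the 15 tested probes, 258 comparisons with other settings were made, of which 230 kept direction and call, 17 lost a call, 4 gained one and 7 changed direction. Several settings share their values, so these comparisons are not independent. Median centring in place of loess gave 7 member probes higher and 4 lower, with 14812 of all probes called (10997 higher and 3815 lower), and turned 6 probes to the other direction, namely the brighter probes of Pecam1 (0.20) and Cdh5 (0.32), the brightest of Sox17 (0.036) and the probes of Emcn (0.60), Icam2 (0.22) and Cldn5 (0.29). The other change of direction was that of the dimmer Sox7 probe without replicate 1 (0.020), whose ratio ran from -0.29 to 0.020 with 1 replicate left out at a time. Keeping marked spots, or only those with background marks, an alternative chosen after seeing the data, gave 2 probes higher, since Cd34 then entered. One probe per gene gave 5 lower, out of 9 genes. With the pairing of pools on an array ignored (separate channels, no replicate block), 0 member probes were higher, 5 were lower and 1478 of all probes were called. With 1 replicate left out at a time, member probes higher numbered 0 to 1, member probes lower 4 to 8 and all calls 1617 to 7601, the lowest without replicate 2. The third probe of Sox17 lost its call without replicate 2, 3 or 4, and the second without replicate 2 (limma adjusted p = 0.0509). A slide block was not run, since all arrays share 1 slide. Dye effects were not tested, since no array has its dyes exchanged.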
